A study of Mus musculus with 8 samples.

Results

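The receptors for interleukins (IL) 2, 4, 7, 9, 15 and 21 share 1 subunit, the common gamma chain, and the 7 genes described here code for that subunit and for partner chains: Il2rg, Il2rb, Il7r, Il21r, Il4ra, Il15ra and Il2ra. They were taken by symbol from a table of 13204 genes, and all 7 were present in all 8 libraries. By the labels, the libraries hold mouse OT-I cells, which are CD8 T cells with a transgenic receptor for an ovalbumin peptide. Marker transcripts of other cell types were also present, as given below. The spleens were taken on day 14 after an ovalbumin-expressing skin graft, and 1000000 OT-I cells had been transferred 24 hours before grafting. Cells in the CD44hi, Thy1.1+, CD8+ gate were sorted as FcgRIIB-positive (4 libraries) or FcgRIIB-negative (4 libraries), where FcgRIIB is an inhibitory receptor for IgG. Each library came from 1000 cells, and positive and negative cells of the same number came from the same pool of 3 spleens. The comparison asks whether cells sorted for this receptor differ in the machinery for gamma chain cytokines. The values are RPKM, reads scaled to exon length and library size. The sources used here give no strain, age or sex for the mice that received the cells.

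Gamma chain cytokines keep CD8 T cells alive and drive their division and differentiation. The common gamma chain binds the kinase JAK3 and the private chains mostly JAK1, and the joined receptor activates STAT proteins, chiefly STAT5 for IL-2, IL-7 and IL-15, STAT6 for IL-4 and STAT3 for IL-21. The IL-2 receptor beta chain serves both IL-2 and IL-15; the alpha chains add high affinity, and that of IL-15 can also present the cytokine from dendritic cells and macrophages to neighbouring cells.

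Promoter sequence is shown for the common gamma chain gene Il2rg and for Il7r, the shared subunit and the member whose window holds the STAT motif; both genes were lower in the positive library of every pool. The sequences are RefSeq's for build GRCm38.p6, minus strand, 5′ to 3′: the 250 bases before the start of Il2rg at chrX:101268256-101268505 and, for Il7r, the 185 of the 250 bases before a start site that no annotated transcript covers, at chr15:9529942-9530126. Capitals mark matches, on either strand, to the ETS core CGGAA and the RUNX core TGTGGT in Il2rg and to the STAT motif TTCNNNGAA in Il7r; these matches do not overlap. The STAT motif ends 133 bases before the Il7r start site.
Il2rg: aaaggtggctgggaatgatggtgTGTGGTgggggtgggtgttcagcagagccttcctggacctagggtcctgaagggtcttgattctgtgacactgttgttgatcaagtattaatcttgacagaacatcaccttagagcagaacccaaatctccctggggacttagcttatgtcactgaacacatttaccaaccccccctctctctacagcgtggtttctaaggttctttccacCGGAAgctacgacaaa
Il7r: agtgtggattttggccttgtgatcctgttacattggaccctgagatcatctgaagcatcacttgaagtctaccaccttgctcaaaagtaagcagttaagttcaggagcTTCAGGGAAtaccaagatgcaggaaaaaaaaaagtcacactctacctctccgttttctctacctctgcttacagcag
Over the 250 bases upstream of each start in the reference table, the STAT motif occurred in 7.02% of 32851 windows, the ETS core in 25.2% and the RUNX core in 14.0%. Of the 6 members with an entry, only Il7r held the STAT motif, Il2rg and Il15ra held the ETS core and Il2rg and Il21r the RUNX core. Il2rb is named without a sequence. A match describes letters and not a bound site.

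None of the 7 receptor genes passed the test between FcgRIIB-positive and FcgRIIB-negative libraries. Il2rg, Il2rb, Il21r and Il7r were lower in the positive library of all 4 pools, whereas Il4ra, Il15ra and Il2ra differed in direction among pools. Of the genes tested, 19.8% were lower and 10.3% higher in all 4 pools. Limma on log2(RPKM + 1) with the group as its only term called 0 of 7 members at an adjusted p under 0.05 (0 at an unadjusted p under 0.05). Of 11946 genes tested it called 3.30% (3.03% higher, 0.268% lower), and 12.1% had an unadjusted p under 0.05 (7.48% higher, 4.67% lower). With the pool as a replicate block it also called 0 of 7, where 11.1% of genes tested were called (7.22% higher, 3.85% lower). In that fit 3 of 7 members, namely Il2rg, Il2rb and Il21r, had an unadjusted p under 0.05 and were lower, beside 23.2% of genes tested with such a p (11.0% higher, 12.3% lower). The median log2 fold change was -0.41 over the 7 members and -0.11 over all genes tested.

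Il2rg was the most abundant member in each library. Positive replicates 1 to 4 had 548, 312, 341 and 215 RPKM, against 623, 701, 817 and 396 RPKM in negative replicates 1 to 4. The groups overlap only through positive replicate 1, which lay above negative replicate 4. The positive mean was 354 ± 140.2 RPKM and the negative mean 634 ± 178 RPKM (SD, n = 4 each). The log2 fold change came to -0.87 (SE 0.45; adjusted p = 0.511 in limma), or 1.83-fold lower on the RPKM + 1 scale, with a 95% interval of -1.86 to 0.12. With the replicate block the SE was 0.32 and the interval -1.53 to -0.21, and the adjusted p of 0.0840 missed the threshold. The within-pool differences were -0.18, -1.17, -1.26 and -0.87, so pool 1 stood apart as the smallest.

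**Figure D1:**
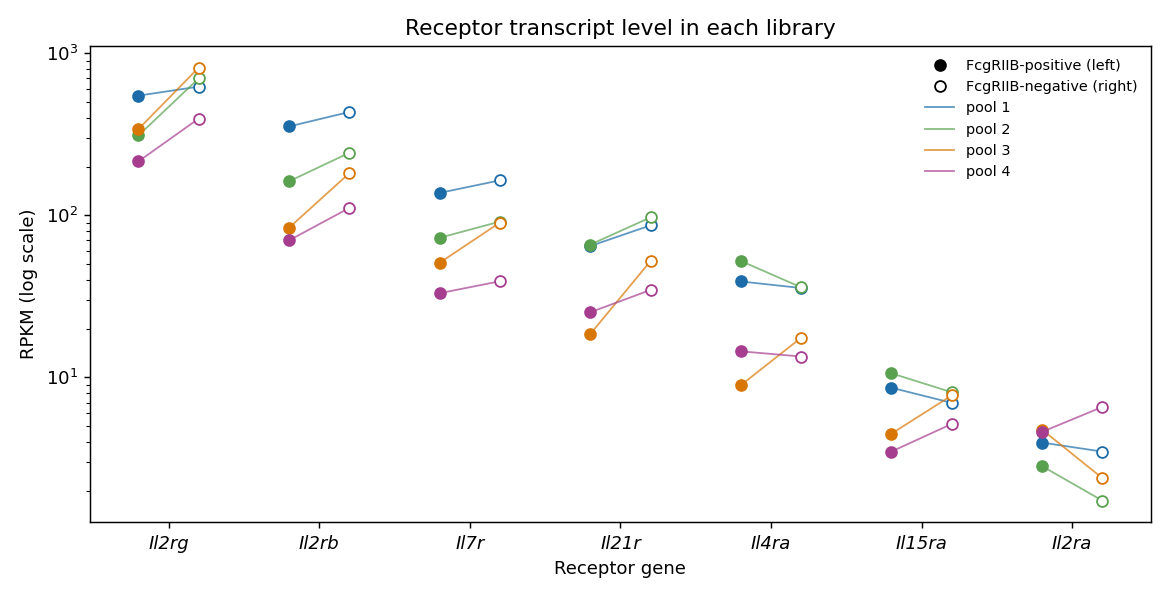
Level of each receptor gene in RPKM (log axis) in every library; filled points on the left are FcgRIIB-positive, open points on the right FcgRIIB-negative, and a line joins the 2 libraries of a pool. Lines of Il2rg, Il2rb, Il7r and Il21r all run upwards to the negative library, while those of the other members cross.

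Il2rb, the signalling chain shared by IL-2 and IL-15, parted the pools more than the groups. Positive replicates 1 to 4 had 354, 162, 83.9 and 70.1 RPKM, and negative replicates 435, 243, 182 and 111 RPKM. The highest library was 5.05 times the lowest within the positive group and 3.91 times within the negative group, and the groups overlap widely. The log2 fold change was -0.66 (SE 0.58; in limma, adjusted p = 0.814; SE 0.26 and adjusted p = 0.112 with the block), with a 95% interval of -1.92 to 0.60, or -1.20 to -0.12 with the block. Every pool was lower in the positive library, by differences of -0.30, -0.58, -1.11 and -0.66.

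Il21r codes for the private chain of the IL-21 receptor. It had 64.7, 66.0, 18.5 and 25.2 RPKM in positive replicates 1 to 4 and 86.8, 97.2, 52.2 and 34.6 RPKM in negative ones. Replicates 1 and 2 were above replicates 3 and 4 in both groups, and each positive library was below its own negative partner, though the groups overlap. The log2 fold change was -0.71 (SE 0.50; in limma, adjusted p = 0.706), with an interval of -1.80 to 0.37. The blocked fit gave an SE of 0.24 and an adjusted p of 0.0618, the smallest of the 7 members; with pool 2 left out of that fit limma gave an adjusted p of 0.0361 at a log2 fold change of -0.77. In that fit limma took the variance from its trend with level across all genes (23892 degrees of freedom in all, against 21.4 with 4 pools). The spread of Il21r itself thus had no weight of its own in it.

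Il7r, the alpha chain of the IL-7 receptor and a marker of long-lived memory T cells and their precursors, showed the smallest of the 4 uniform differences. Positive replicates 1 to 4 had 138, 72.7, 51.0 and 33.1 RPKM, against 165, 91.6, 90.4 and 39.2 RPKM in negative ones. The differences within pools were -0.26, -0.33, -0.81 and -0.24 on the log2 scale, all below 0, with a mean of -0.41 (SE 0.52, limma adjusted p = 0.934; with the block SE 0.23, interval -0.90 to 0.08, adjusted p = 0.324). The span of a group's libraries was again wider than the distance between group means, 73.6 ± 45.7 RPKM for positive and 96.4 ± 51.6 RPKM for negative libraries (SD, n = 4 each).

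Il4ra, the signalling chain for IL-4 and IL-13, gave no common direction. Positive replicates had 39.1, 52.3, 8.96 and 14.5 RPKM, and negative replicates 35.6, 36.0, 17.6 and 13.5 RPKM. It was higher in the positive library of 3 pools and lower in pool 3. The mean difference was -0.04 (SE 0.54, limma adjusted p = 1.00), with an interval of -1.22 to 1.15, or -0.56 to 0.49 with the block (SE 0.25, adjusted p = 0.967). Within replicates 1 and 2 the log2 fold change was 0.33, and within replicates 3 and 4 it was -0.40.

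Il15ra, the alpha chain for IL-15, was 1 of the 2 lowest members in every library. Among all genes its mean was at percentile 49.1 in the positive group and 51.0 in the negative group. Positive replicates 1 to 4 had 8.64, 10.6, 4.50 and 3.49 RPKM, and negative replicates 6.97, 8.10, 7.74 and 5.16 RPKM, from 69 to 1020 reads a library. Replicates 1 and 2 were higher and replicates 3 and 4 lower in the positive library, so that the positive group had the wider spread. The fold change was 0.31 on the log2 scale within replicates 1 and 2 and -0.56 within replicates 3 and 4; over all 4 pools it was -0.13 (SE 0.35, limma adjusted p = 1.00), with an interval of -0.89 to 0.64.

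Il2ra, the alpha chain that raises the affinity for IL-2 and is induced on activation, was 1 of the 2 lowest members in every library. Among all genes its mean was at percentile 36.3 in the positive group and 35.7 in the negative group. Positive replicates 1 to 4 had 3.96, 2.83, 4.76 and 4.61 RPKM, and negative replicates 3.48, 1.74, 2.39 and 6.57 RPKM, which rest on between 92 and 341 reads per library. Only pool 4 was lower in the positive library. The log2 fold change was 0.24 (SE 0.36; in limma, adjusted p = 0.961), with an interval of -0.54 to 1.02. The RefSeq annotation places a long non-coding gene, Gm39760, over Il2ra, and the sources used here do not say whether reads were counted by strand, so a part of these low values may belong to it.

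**Figure D2:**
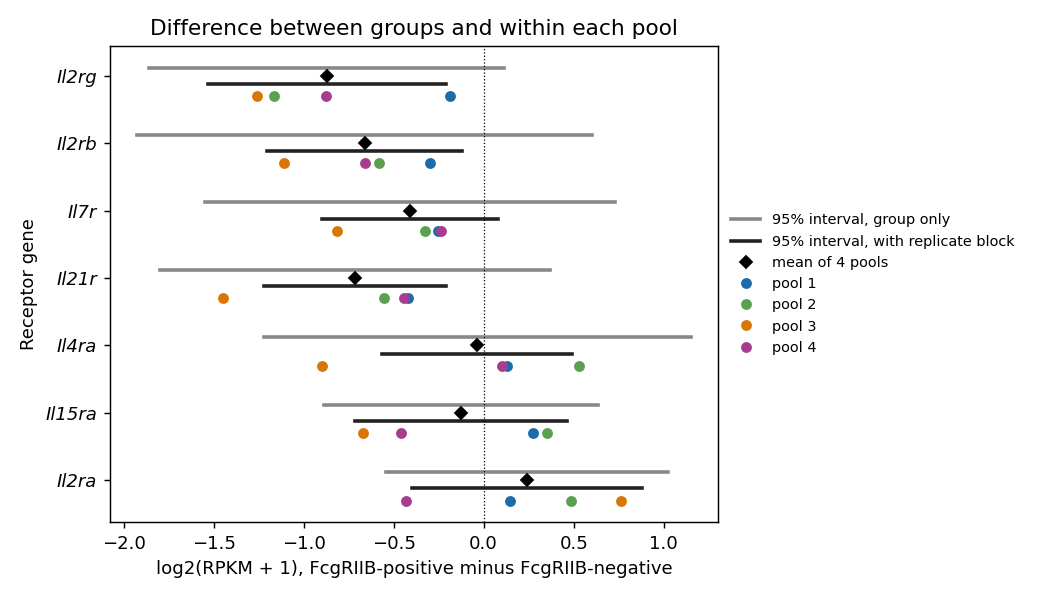
Difference in log2(RPKM + 1), FcgRIIB-positive minus FcgRIIB-negative, for each receptor gene: diamonds are means over 4 pools, bars the 95% intervals of limma with the group only (grey) and with the replicate block (black), and coloured points the 4 pools. The black bars of Il2rg, Il2rb and Il21r end below 0 before adjustment for the genes tested, and the grey bars of all 7 genes include 0.

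Within replicates 1 and 2 alone the log2 fold changes of Il2rg, Il2rb, Il21r and Il7r were -0.68, -0.44, -0.48 and -0.29, and within replicates 3 and 4 alone -1.07, -0.88, -0.94 and -0.53. All 4 were thus below 0 in both sets, and limma called none of them in either. Levels of some members also differed by pool. Il2rb was at 162 to 435 RPKM in replicates 1 and 2 and at 70.1 to 182 RPKM in replicates 3 and 4. Il4ra was at 35.6 to 52.3 against 8.96 to 17.6 RPKM. Il21r was at 64.7 to 97.2 against 18.5 to 52.2 RPKM, and Il7r at 72.7 to 165 against 33.1 to 90.4 RPKM. Il15ra was at 6.97 to 10.6 against 3.49 to 7.74 RPKM. Il2rg and Il2ra had no such shift. Il2rg spanned 312 to 701 RPKM in replicates 1 and 2 and the wider 215 to 817 RPKM in replicates 3 and 4. Il2ra was at 1.74 to 3.96 against 2.39 to 6.57 RPKM, with its highest value in replicates 3 and 4. Replicates 1 and 2 were also the deeper libraries, at 16470000 to 22010000 reads against 3060000 to 7360000 reads in replicates 3 and 4, and the part of depth in these levels was not tested.

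The order of the members by level was nearly the same in all libraries. On the RPKM scale, which is per length, Il2rg was above Il2rb and Il2rb above Il7r in 8 of 8 libraries, and Il21r above Il4ra and Il4ra above Il15ra also in 8 of 8. Il7r was above Il21r in 7 of 8, the exception being negative replicate 2. The lowest places were not settled, with Il15ra above Il2ra in 2 of 4 positive and 3 of 4 negative libraries. Across libraries the ranges of neighbours in this order overlapped in both groups, except for Il4ra and Il15ra in the negative group. Il2rg alone made up 45.9% to 66.5% of the summed RPKM of the 7 genes in positive and 46.0% to 69.9% in negative libraries, while Il2ra made up 0.343% to 1.26% in positive and 0.147% to 1.08% in negative libraries.

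Percentages of RPKM within a library do not depend on how libraries were scaled. Log2 ratios with 1 RPKM added depend on it in part, most for genes of low level. Il2rb transcript was 64.5%, 52.1%, 24.6% and 32.5% of Il2rg transcript in positive replicates 1 to 4, against 69.7%, 34.7%, 22.3% and 28.1% in negative ones. It was higher relative to Il2rg in the positive library of 3 pools. The mean difference was 0.21 on log2(RPKM + 1) (exact permutation p = 0.714, two-sided). Il15ra stood at 1.57%, 3.40%, 1.32% and 1.62% of Il2rg in positive libraries and 1.12%, 1.16%, 0.947% and 1.30% in negative ones, so that the groups did not overlap.

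With 1 RPKM added to each level, the log2 ratio of Il15ra to Il2rg was -5.53 ± 0.54 in positive and -6.28 ± 0.22 in negative libraries (SD, n = 4 each), a difference of 0.75 that was above 0 in 4 of 4 pools. The exact permutation test gave p = 0.0286, its lower limit with 4 libraries against 4, and 0.171 when adjusted over the 6 ratios tested by the Benjamini-Hochberg method. Of all genes tested, 10.6% had a ratio to Il2rg that was higher without overlap. Il2ra and Il4ra were also higher relative to Il2rg in 4 of 4 pools, by means of 1.11 and 0.84 (exact permutation p = 0.143 and 0.229, adjusted 0.343 each), as were 51.4% of genes tested. Il7r and Il21r gave 0.46 and 0.16 with exact permutation p of 0.229 and 0.771. Exchanging labels within pools cannot give a p below 0.125.

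**Figure D3:**
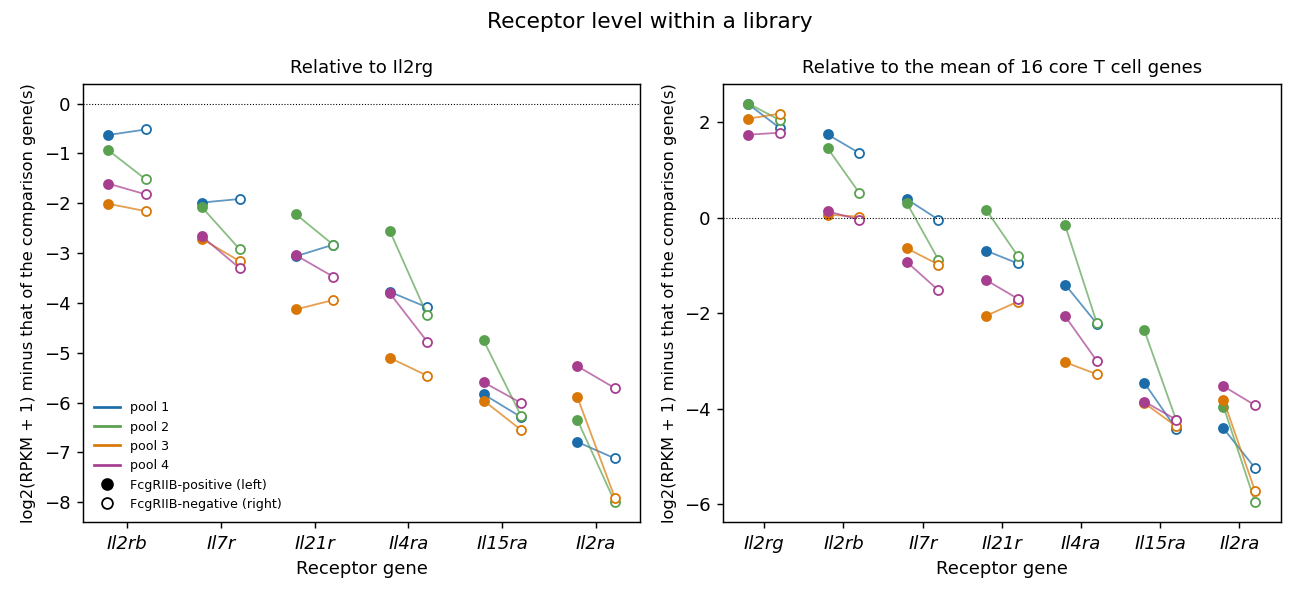
Level of each receptor gene on log2(RPKM + 1) minus that of Il2rg in the same library (left) and minus the mean of 16 core T cell genes (right); filled points are FcgRIIB-positive and open points FcgRIIB-negative, joined by pool. Il15ra is the member whose positive points all lie above its negative points in both panels.

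The 16 core T cell genes, which include the CD3 chains and the kinase gene Lck, summed to 1662 to 3719 RPKM in positive libraries and 4714 to 7302 RPKM in negative ones, led by Cd3g at 635 against 1188 RPKM and Cd3d at 554 against 853 RPKM. Limma called 0 of these 16 with the group alone (7 lower at an unadjusted p under 0.05) and 10 lower with the block, with a median log2 fold change of -0.98. In bulk libraries fewer T cells and less RNA per T cell cannot be told apart. Relative to the mean log2 level of these genes, Il2rg differed by 0.18 and was higher in 2 of 4 pools (exact permutation p = 0.371). Il2rb and Il7r differed by 0.39 and 0.64 and were higher in 4 of 4 pools (exact permutation p = 0.429 and 0.200), and Il21r by 0.33, higher in 3 of 4 pools (exact permutation p = 0.600). The sign of these 4 genes therefore turned with this scaling, which moved the median of all genes tested to 0.94, against -0.11 as deposited. Il15ra gave 0.92 without overlap (exact permutation p = 0.0286, 0.200 adjusted over the 7 genes), Il4ra 1.01 and Il2ra 1.29 (exact permutation p = 0.171 and 0.0857). Without overlap 21.5% of genes tested were higher on this scale, and 73.4% were higher in all 4 pools.

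Transcripts of other cells differed between the groups. All 16 dendritic cell markers were in the table and summed to 751 to 1595 RPKM in positive libraries and 37.8 to 106 RPKM in negative ones, led by Naaa at 174 against 8.89 RPKM and Irf8 at 164 against 14.8 RPKM, and limma called 14 of them higher, or 15 with the block. The 19 macrophage and monocyte markers summed to 4366 to 9591 against 1852 to 3642 RPKM, led by Tyrobp at 1754 against 186 RPKM and Ly6c2, which activated T cells also express, at 1658 against 2162 RPKM, and 11 were called higher, or 16 with the block. Sums were 63.1 to 1280.5 against 8.56 to 43.4 RPKM for 8 basophil and mast cell markers. Of these, 3 were called higher, or all 8 with the block. Mcpt8 averaged 304 against 2.78 RPKM and Prss34 244 against 3.22 RPKM, with most of both in positive replicates 3 and 4. Positive replicates 1 to 4 had 16.9, 64.0, 587 and 547 RPKM of Mcpt8 and 3.40, 2.24, 546 and 425 RPKM of Prss34. In pool 2 Prss34 was at 2.24 RPKM in the positive and 2.52 RPKM in the negative library. For 6 of 8 NK cell markers in the table the sums were 926 to 4253 against 787 to 1202 RPKM. They were led by Tyrobp, which is also in the macrophage and monocyte list, and by Gzma. T cells share Gzma, which was at 654 against 564 RPKM. Limma called 1 of the 6 NK cell markers lower, and with the block 1 higher and 1 lower. Sums of 9 of 10 B cell markers overlapped, at 73.9 to 206 against 99.2 to 462 RPKM, with Cd79b at 43.3 against 85.8 RPKM and Cd79a at 49.7 against 81.8 RPKM, and 2 of the 8 tested were called lower with the block alone. So did those of 7 of 8 neutrophil markers, at 23.4 to 664 against 224 to 1992 RPKM, and 1 was called lower with the block alone. S100a8 averaged 136 against 331 RPKM and S100a9 131 against 260 RPKM. Both were lower in the positive library of pools 1 and 2 and higher in that of pools 3 and 4. None of the markers in the table was at 0 in all libraries of a group, several of these cell types are known to express Il2rg, Il4ra, Il15ra or Il21r, and the part of such cells in the receptor values was not tested.

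Among receptor chains that join or resemble the members, Il13ra1 was higher in positive libraries. This gene codes for the chain that pairs with the IL-4 receptor alpha chain outside lymphocytes. It had 12.9, 30.3, 5.46 and 6.13 RPKM in positive libraries and 1.53, 3.42, 1.07 and 1.87 RPKM in negative ones, without overlap (4.61% of genes tested were higher in this way). Limma gave a log2 fold change of 2.06 (SE 0.48, adjusted p = 0.0366), and 5 of 8 fits with a library left out, those without positive replicate 1 or 2 or negative replicate 1, 3 or 4, lost the call, with adjusted p up to 0.143. With the replicate block the adjusted p in limma was 4.56e-05, and the call held in 4 of 4 blocked fits with a pool left out, at 0.00356 or less. For every gene, the fits without pool 2 or 4 took the variance from its trend with level across all genes. Dendritic cell and macrophage markers were higher in the same libraries, and their part was not tested. Crlf2, the receptor chain for TSLP, averaged 9.75 ± 2.86 RPKM in the positive group and 8.74 ± 1.32 RPKM in the negative group (SD, n = 4 each) and did not pass. Il9r reached at most 2.15 RPKM in positive libraries and 3.26 RPKM in negative ones and was below the filter for testing.

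Of the ligands, only the IL-15 gene, Il15, was in the table. It was at 10.4, 9.96, 8.93 and 5.87 RPKM in positive libraries and 2.27, 3.74, 3.41 and 4.10 RPKM in negative ones, so each positive library exceeded each negative one. The log2 fold change of 1.15 (SE 0.29) missed the threshold in limma (adjusted p = 0.0574) and passed with the replicate block (adjusted p = 0.0113; up to 0.120 with a pool left out, and not passing without pool 1 or 3). IL-15 is known from dendritic cells and macrophages, whose markers were higher in the positive libraries, and their part was not tested.

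No JAK or STAT gene passed, with or without the block, among 8 tested. With the group only, 0 had an unadjusted p under 0.05 in limma, beside 12.1% of genes tested. With the block 1 was higher and 2 were lower at such a p, beside 11.0% and 12.3% of genes tested. Jak3, the kinase of the common gamma chain, averaged 15.7 ± 6.89 RPKM in the positive group and 26.9 ± 17.6 RPKM in the negative group, and Jak1 150.0 ± 79.9 against 190.2 ± 130 RPKM (SD, n = 4 each). Stat5b had a log2 fold change of -0.63 (SE 0.36) and Stat5a, its close relative, of -0.21 (SE 0.41); Tyk2, a kinase of the same family, had 0.85 (SE 0.62). Stat5a and Stat5b are similar in sequence, and reads that they share could be split between them.

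Among 8 negative regulators limma called none with the group alone, and 2 were lower at an unadjusted p under 0.05, beside 4.67% of genes tested. With the block it called 2 lower, both of them suppressors of cytokine signalling, beside 3.85% of genes tested. Socs3 was at 20.8, 25.5, 15.7 and 20.4 RPKM in positive libraries and 54.7, 53.5, 35.3 and 33.0 RPKM in negative ones, with no overlap, as in 4.15% of genes tested. It differed by -1.05 on the log2 scale (SE 0.32; adjusted p = 0.137 in limma, and 0.00338 with the block). Socs1 had 8.07, 10.9, 23.9 and 15.0 RPKM in positive libraries and 22.1, 34.1, 29.98 and 30.9 RPKM in negative ones and overlapped in 1 library of each group. It also gave -1.05 (SE 0.36, limma adjusted p = 0.192; 0.00666 with the block and 0.0602 when pool 1 was left out of it). Scaled to the core T cell genes, the values were 0.00 for Socs3 and -0.01 for Socs1. Cish, a STAT5 target picked with its value in view, averaged 13.0 ± 7.998 RPKM in positive libraries against 15.1 ± 6.37 RPKM.

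Of 10 adaptors and members of the PI3K branch none passed with the group alone. In limma 1 of them was higher at an unadjusted p under 0.05, beside 7.48% of genes tested. Gab2, a docking protein, was at 3.25, 7.64, 2.94 and 3.24 RPKM in positive libraries and 0.447, 0.367, 0.445 and 3.16 RPKM in negative ones, with negative replicate 4 apart from its group. Its log2 fold change of 1.42 (SE 0.45, limma adjusted p = 0.148) passed with the block (adjusted p = 0.0127), but lost the call when pool 1, 2 or 3 was left out of that fit, with adjusted p up to 0.156. Gab3, a related docking protein, averaged 17.4 ± 9.53 RPKM in positive libraries against 25.3 ± 7.61 RPKM in negative ones.

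Genes that this pathway is known to induce or sustain went both ways. Limma called 1 of 12 higher and 1 lower, beside 3.03% and 0.268% of genes tested. With the block it called 1 higher and 4 lower, beside 7.22% and 3.85% of genes tested. Osm, which codes for the cytokine oncostatin M and is also made by myeloid cells, was at 40.2, 142.7, 29.6 and 44.1 RPKM in positive libraries and 5.90, 18.9, 3.49 and 6.35 RPKM in negative ones. It was higher by 2.70 on the log2 scale (SE 0.54; adjusted p = 0.0165 in limma), with an adjusted p of 0.0814 once negative replicate 3 was left out; with the block it was 1.67e-08, and the call held in 4 of 4 fits with a pool left out. Lta, the lymphotoxin alpha gene of activated lymphocytes, was at 4.21, 5.06, 3.78 and 6.40 RPKM in positive libraries and 10.1, 25.4, 17.97 and 11.4 RPKM in negative ones. It fell by 1.49 on the log2 scale (SE 0.34, limma adjusted p = 0.0317), and the call was lost without positive replicate 1, 2 or 3 or negative replicate 2 or 3, with adjusted p up to 0.120. The blocked fit gave Lta an adjusted p of 0.000861 in limma and kept the call in 4 of 4 fits with a pool left out, at 0.0298 or less.

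With the block the kinase gene Pim2, the cyclin gene Ccnd2 and Myc were lower as well, at log2 fold changes of -1.19, -1.002 and -0.85 (limma adjusted p = 0.00182, 0.00830 and 0.0316); these 3 were named after their values were seen. With a pool left out their adjusted p reached 0.0303, 0.0670 and 0.195, and the call was lost for Ccnd2 without pool 3 and for Myc without pool 2 or 3. Scaled to the core T cell genes Lta stood at -0.44, Pim2 at -0.14, Ccnd2 at 0.04 and Myc at 0.20, none of them called, and Osm at 3.75. Bcl2, a survival gene downstream of IL-7, averaged 10.9 ± 1.27 RPKM in positive libraries against 18.9 ± 2.58 RPKM (SD, n = 4 each) and did not pass in either fit (adjusted p = 0.249 and, with the block, 0.0581 in limma); it too was named after its value was seen.

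**Figure D4:**
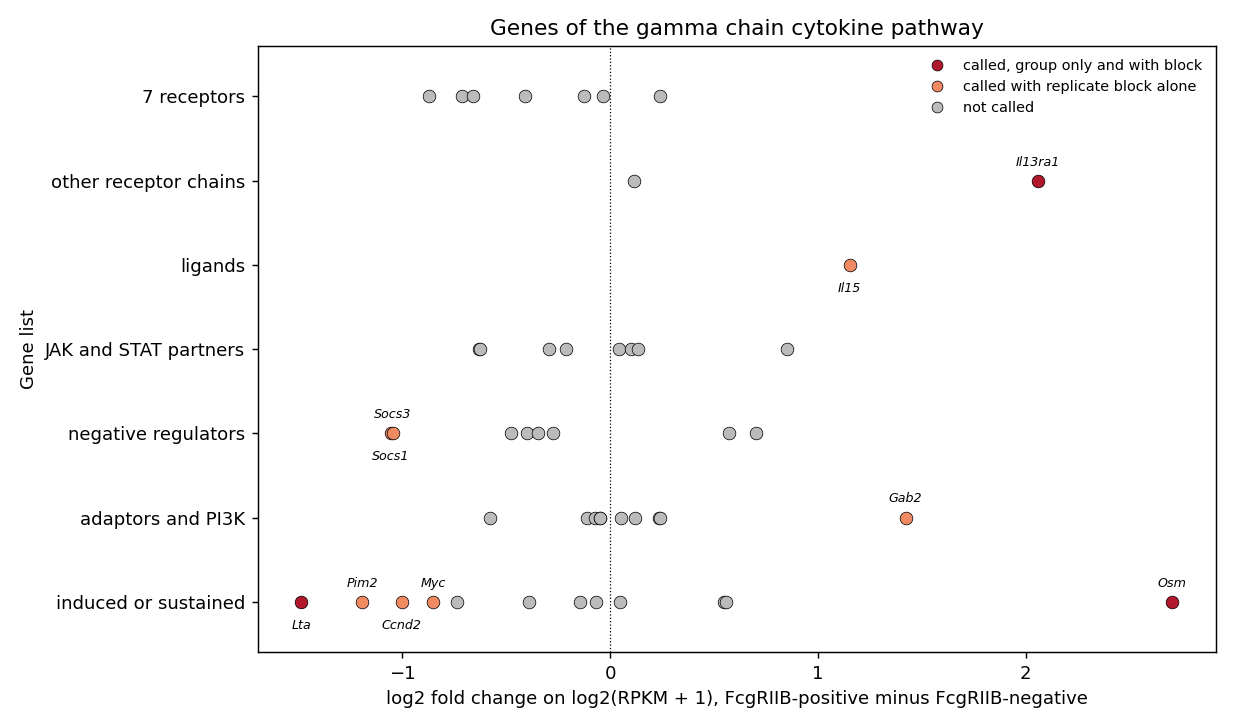
Log2 fold change, FcgRIIB-positive minus FcgRIIB-negative, of the 7 receptors and of the tested genes of 6 pathway lists; red points passed limma with the group only and with the replicate block, orange points with the block alone, and grey points did neither. All 7 receptors are grey and lie between -0.87 and 0.24.

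The members also sit in 2 neighbouring sets of coding genes in the RefSeq annotation, Il2ra beside Il15ra on chromosome 2 and Il4ra beside Il21r on chromosome 7. Il2rb and Il7r are both on chromosome 15 without being neighbours, and Il2rg is on chromosome X. Over the 8 libraries the likeness of 2 profiles was measured as the root mean square difference of log2(RPKM + 1) after each gene was centred on its own mean. Il2rb and Il7r were most alike at 0.25, followed by Il21r and Il4ra at 0.38, while Il2ra and Il15ra differed by 0.79 and Il2ra was least like Il2rb at 1.16. Among 7758 genes with a mean of at least 5 RPKM, the profiles nearest to Il2rb were those of Arid5a (0.098), Adora2a (0.107) and Golm1 (0.117), and to Il2rg those of Mterf2 (0.107), Srfbp1 (0.118) and Acaa2 (0.118). Nearest to Il7r were Dok2 (0.183), Crot (0.201) and Adora2a (0.204), and to Il21r Apol7b (0.119), Trim34a (0.136) and Rnf19a (0.147). For Il4ra they were Abce1 (0.178), Snd1 (0.182) and Kat7 (0.184), for Il15ra Vipas39 (0.132), Rad17 (0.134) and Snapc3 (0.135), and for Il2ra Inafm2 (0.092), Tnrc6a (0.165) and Pan3 (0.173). The 8 libraries share pools and depth, so a close profile describes these libraries alone.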

How the data were processed

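Poly(A) RNA of 8 libraries, each from 1000 sorted cells, was made into cDNA with the SMART-seq v4 kit and into libraries with the NexteraXT kit, per the labels' protocols. The values are RPKM per gene as the authors deposited them, per the file headers; the submitters' processing notes name TopHat2 and the mouse build mm9, and how reads were counted, and whether by strand, is not stated there. Each of the 13204 genes listed reaches 3 RPM in 4 or more libraries; 21 symbols turned into dates were restored by Entrez ID, and RefSeq names matched 13187 IDs. Low values were whole multiples of 1 read (within 0.1 reads), which gave depths of 3060000 to 22010000 reads; reads from amplified cDNA are not independent molecules.

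Limma 3.58.1 (R 4.3.3; lmFit, eBayes with trend, two-sided) was fitted to log2(RPKM + 1) of the 11946 genes that reached 1 RPKM in 4 or more libraries, with the group as its only term (11.9 total degrees of freedom, 21.4 with the block), and p-values were adjusted over them by the Benjamini-Hochberg method at 0.05. Fold changes, positive minus negative, understate low genes. Replicate numbers mark pools of spleens, per the series design, so the blocked fit is given too. Deviations from group means correlated at 0.70, 0.41, 0.56 and 0.68 within pools 1 to 4. Positive replicate 2 correlated better with the negative library of another pool, and every other library best with its own partner. Ratios within a library were compared by exact permutation over 35 splits. The limma fit with the group only was tested on simulated data without pool effects, and the blocked fit was not tested in this way. The members and lists were chosen with earlier results of these data known. From each pathway list up to 4 called members were named by smallest p beside the 7 receptors, or 2 as values where none was called, with Jak1, Jak3, Stat5a and Stat5b always, and the 2 most abundant markers of each other cell type, and the 3 genes nearest in profile to each receptor. Alternatives covered the block, pseudocount, filter, scaling, trend and leaving out libraries. Promoters are from RefSeq (GRCm38.p6) and no coordinate was joined to the table, which has none.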

Additional observations from a re-analysis of the deposited data

How the results depend on the processing

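No receptor gene was called in the alternatives listed here, which covered all 7 genes except under the filter of 5 RPKM, where Il2ra was not tested and 6 were (pseudocounts of 0.1 and 0.5, no filter or 5 RPKM, 4 scalings, no trend, each library left out, replicates 1 and 2 or 3 and 4 only, and the replicate block). The exception came from an alternative chosen after seeing the data, the blocked fit without 1 pool, where Il21r passed without pool 2 (-0.77). Without pool 3 that fit put Il15ra at 0.056 and Il4ra at 0.25. Scaling to core T cell genes reversed the sign of Il2rb (0.39), Il2rg (0.18), Il7r (0.64), Il15ra (0.92), Il21r (0.33) and Il4ra (1.01), without a call. Il4ra was also above 0 after median ratios (0.0044) and quantiles (0.091), and within replicates 1 and 2 (0.33), as was Il15ra there (0.31). With single libraries left out, log2 fold changes ranged from -1.11 to -0.66 for Il2rg, -1.12 to -0.32 for Il2rb, -0.99 to -0.39 for Il21r, -0.78 to -0.10 for Il7r, -0.42 to 0.39 for Il4ra, -0.35 to 0.10 for Il15ra and 0.03 to 0.52 for Il2ra, and 0 were called; leaving out pools gave 0 to 1 call. The 6 ratios to Il2rg and the 7 values relative to core T cell genes did not pass with any pseudocount tried.

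As deposited 362 genes were higher and 32 lower. Higher calls were 863 with the replicate block, 1383 scaled to core T cell genes and 875 within replicates 1 and 2. Lower calls were 460 with the block, 19 after median ratios or without trend, 59 by quantiles, 0 in limma scaled to core T cell genes (where 4570 genes had an unadjusted p under 0.05 in either direction), 142 within replicates 1 and 2 and 11 within replicates 3 and 4. With a library left out, higher calls ranged from 178 (without negative replicate 3) to 503 and lower ones from 5 (without the same library) to 45. The blocked fits without pools 1 to 4 called 576, 800, 617 and 1242 higher and 261, 350, 157 and 458 lower. Those without pool 2 or 4 took the variance from its trend with level across all genes. The cause was not tested. The SE was 0.35 to 0.58 for the 7 receptors with the group only and 0.23 to 0.32 with the block. The fewest reads behind a value were 69 for Il15ra and 92 for Il2ra, and the part of depth in their errors was not tested.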
